A study of Mus musculus with 60 samples.

Results

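The small intestine of female C57BL6/J mice was profiled in 4 libraries, chosen by their tissue label, out of 60 libraries made from 15 tissues with 4 libraries each. The mice were 6 weeks old, carried no transgene or treatment in the labels, and had their blood washed out by cardiac perfusion with PBS holding EDTA before the organs were taken. The tissues set against small intestine were colon, liver, kidney, blood (mononuclear cells), bone marrow, brain, female reproductive tract, heart, inguinal lymph node, lung, mesenteric lymph node, skin, spleen and thymus. Whole organ RNA was read from its polyadenylated 3′ end, so each value counts tags of a gene and not its full length. The labels do not say which stretch of small intestine was taken, and in whole organ RNA a smaller share of a cell type cannot be told apart from less RNA per cell.

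Digestion and absorption in the small intestine are carried out by enterocytes, whose apical membrane forms a brush border that holds hydrolases and transporters. Between the villi, crypts hold dividing stem cells and Paneth cells, which release antimicrobial α-defensins into the lumen, and scattered goblet, enteroendocrine and tuft cells make mucus, hormones and immune signals. The organ is also patterned along its length: the first stretch takes up iron, calcium and most sugar and fat, while the ileum recovers bile acids.

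Levels are given as counts per 1000000 counts (CPM) after scaling with trimmed means of M values (TMM), a correction for differences in RNA make-up. Values of single small intestine libraries are listed from replicate 1 to replicate 4, and ± gives the SD over the 4 libraries of a tissue. The small intestine libraries held 2072584 to 3035803 counts each, against 750212 to 951914 in colon. Spearman's rho between small intestine libraries had a median of 0.97 over tested genes, against a median of 0.87 with colon, 0.76 with kidney and 0.52 with brain, given as a description over genes of the same libraries. Mitochondrial ribosomal RNA took 7.52 to 9.59% of counts in small intestine, against 0.736 to 0.928% in colon, and the nuclear RNA Malat1 took 0.131 to 0.170% in small intestine, against 0.0151 to 0.0218% in colon. Their part in the differences from colon was not tested. Genes of the small intestine were also read at low levels in single libraries of other tissues: over 91 genes restricted to small intestine with 100 CPM or more, the median level was 1.11% of the small intestine mean in brain replicate 3 and 0.686% in liver replicate 4. The other brain and liver libraries lay at or below 0.166% on that measure. Small intestine replicate 4 stood apart in the summed stomach genes and in single genes such as Tff2 and Papss2, and values without it are given where they move a result.

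Of 18562 genes tested, 3694 were called higher in small intestine than in the equally weighted mean of the other 14 tissues, which is 19.9% of the genes tested. A further 1577 genes, or 8.5%, were called lower. A call here required a Benjamini-Hochberg adjusted p below 0.05 in edgeR's quasi-likelihood test and a log2 fold change past 1. Standard errors (SE) are approximate values derived from the fit of that test. Fold changes are over the mean of the other 14 tissues unless a tissue is named with them, and adjusted p-values are from that test unless another is named. When libraries were scaled by their totals alone, 3187 genes were called higher and 2127 lower, so the share of higher calls was 59.97% in place of 70.08%. The contrast averages log levels over tissues, so a gene that is read in few tissues can be called higher although 1 tissue exceeds small intestine. Fitted fold changes of genes with no read in some tissue depend on the small count the fit adds, and they are no bound. The SE given with them do not cover that dependence. For lists of genes, the median log2 ratio is therefore given with every tissue level below 3 counts set to 3 counts, and over all tested genes that median was -0.11. On that scale 429 of the genes called higher had a ratio under 1, and among members of the gene lists these were 11, among them Cxcl13, Saa1, Trdc, Ccr3, Hoxb9, Hoxb6, Sox10 and Retnlb. Of 472 genes on 34 lists of cell types and functions, 431 passed the filter on low counts and 41 did not. A gene can pass that filter through small intestine alone, so the counts of list members are descriptions. None of the 1080 tested genes with no read in small intestine and in another tissue was called lower.

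The markers of the organ were as its label says. Defa24, an α-defensin of Paneth cells, had 33268, 40939.6, 33622 and 22518 CPM in the small intestine libraries, against 103 ± 194 CPM in brain, the tissue with the next highest mean. The brain mean rested on brain replicate 3 at 394 CPM, and every small intestine library was above all 56 libraries of the other tissues. Its log2 fold change over the other 14 tissues was 13.45 (SE 0.35, adjusted p = 2.9e-38). Fabp2, which binds fatty acids inside enterocytes, had 11533, 10197, 7037 and 9372 CPM in small intestine and 534 ± 174 CPM in colon (log2 fold change over all 14 tissues 12.15, SE 0.20, adjusted p = 1.6e-50). Gip, the incretin hormone of K cells, had 161, 125, 125 and 173 CPM in small intestine, against 0.732 ± 1.04 CPM in liver. For these markers no library of another tissue reached the lowest small intestine library, as the plot of the 3 markers and sucrase-isomaltase shows.

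**Figure D1:**
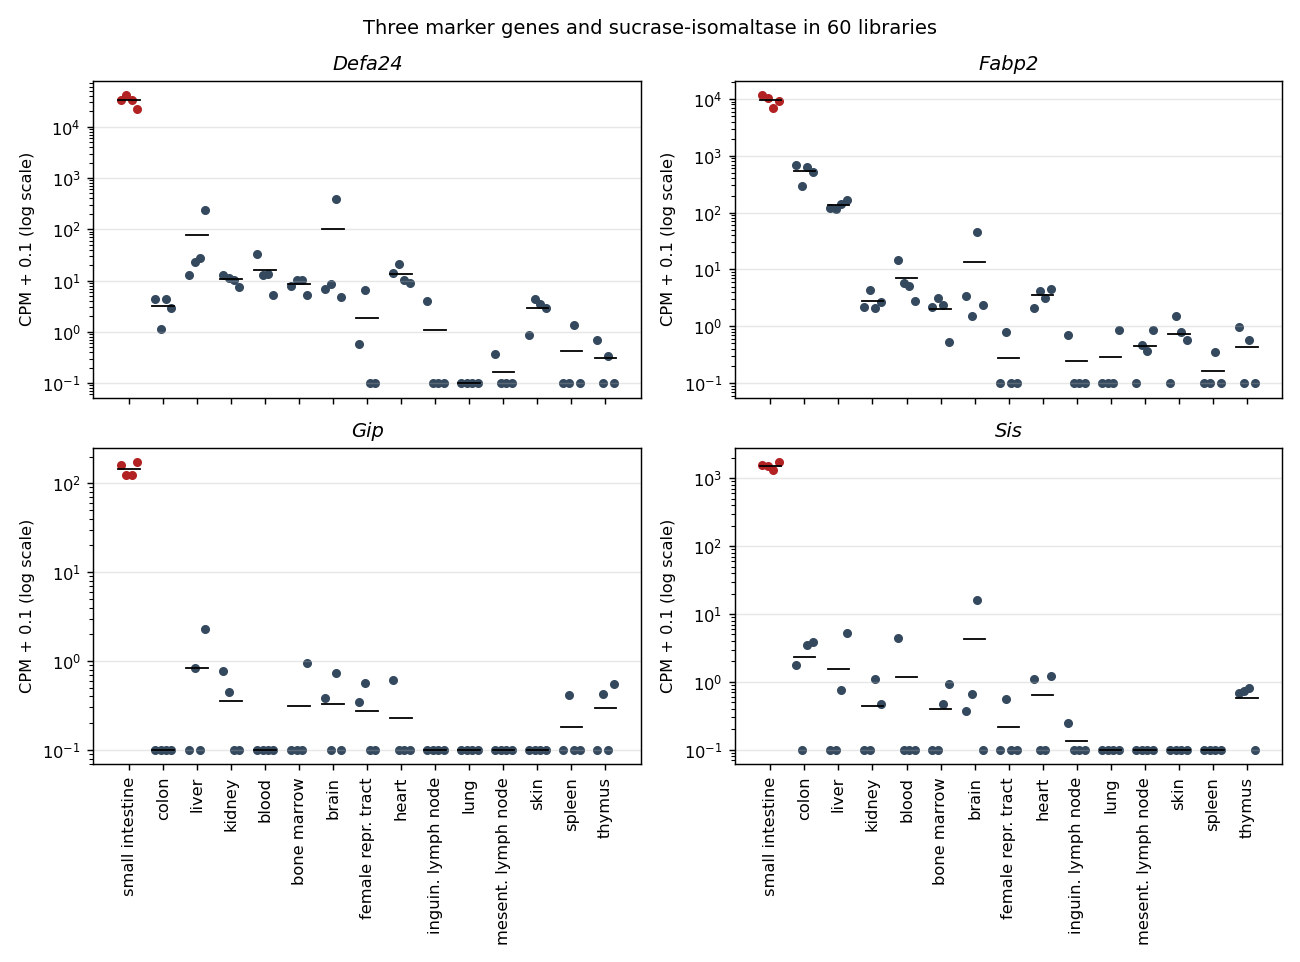
CPM + 0.1 on a log scale for Defa24, Fabp2, Gip and Sis in each of 60 libraries (points) with tissue means (bars), small intestine at the left. The small intestine points lie above every other point in each panel, with brain replicate 3 and liver replicate 4 among the higher points of the other tissues for Defa24.

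Paneth cell genes made up the top of the ranking. Of the 19 tested members of a list of Paneth cell genes, 18 were called higher and none lower, where 19.9% of all tested genes were called higher. Their median log2 ratio was 10.06, against -0.11 over all tested genes. Genes with provisional symbols were not ranked. Among the 15 leading genes of the rest by log2 fold change at 50 CPM or more, 7 were α-defensins: Defa30, Defa24, Defa22, Defa21, Defa29, Defa17 and Defa34. AY761184 and Gm14851, also on chromosome 8, were among the genes not ranked. They had means of 5812 and 5052 CPM in small intestine, 285 and 309 times those in brain, the next tissue. Defa34 was not called in DESeq2's Wald test (adjusted p = 0.087). Defa30 had 10836, 13537, 12055 and 7447 CPM in small intestine, against 36.8 ± 71 CPM in brain. Defa22 had 4824, 5412, 3421 and 2001 CPM in small intestine, against 12.9 ± 23.7 CPM in brain, and Defa17 had 863, 1369, 2367 and 1300.0 CPM, against 5.79 ± 10.4 CPM. Both genes lay above all other libraries, but their order over the small intestine libraries differed: replicate 4 was lowest for Defa22 and replicate 1 for Defa17. Counts of Defa symbols together took 3.30 to 6.06% of all counts in small intestine, against at most 0.0680% in any other library.

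Some of the defensin genes are near copies of each other, and how reads were shared between such copies was not tested. Over 15 genes with Defa symbols and a transcript in the annotation, the last 200 transcript bases were 73.0% identical in the median of 105 pairs, 45.0% at least and 99.5% at most. The pseudogenes Defa-ps6, Defa-ps7 and Defa-ps18 were among them, and the lowest value was from pairs with Defa-ps7. Genes without a Defa symbol were not compared. In 5 pairs they were over 95% identical, among them Defa24 and Defa30 at 97.5%. RefSeq's sequence of the 250 bases before the start (build GRCm38.p6, plus strand) is shown for a pair of these genes. That of Defa22 was identical to that of Defa21 at chr8:21025295-21025544 over all 250 bases, and 57.6% identical to that of Defa30. Identity was taken from edits end to end, so windows placed at unlike points of a gene score lower. The Defa30 window ended at 21134649, past the gene start of 21134642 in GENCODE M21, so 57.6% can understate the likeness. By the same measure the windows of Sis and Alpi were 43.2% identical.
Defa22, chr8:21162027-21162276: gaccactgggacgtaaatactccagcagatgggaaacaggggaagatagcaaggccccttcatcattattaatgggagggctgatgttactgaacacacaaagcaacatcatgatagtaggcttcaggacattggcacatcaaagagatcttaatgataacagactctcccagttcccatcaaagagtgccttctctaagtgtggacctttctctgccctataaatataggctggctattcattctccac
Defa30, chr8:21134400-21134649: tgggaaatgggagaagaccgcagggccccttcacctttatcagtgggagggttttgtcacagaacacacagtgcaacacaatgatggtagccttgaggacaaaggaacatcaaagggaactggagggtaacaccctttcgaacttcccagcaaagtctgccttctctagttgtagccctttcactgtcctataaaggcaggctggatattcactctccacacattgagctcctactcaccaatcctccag
These lines are in lower case throughout, since no motif searched for below was found in either window.

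Other secreted products of the crypt were also far higher than in any other tissue. Itln1, an intelectin that binds microbial sugars, had 5034, 6205, 5278 and 3248 CPM in small intestine, against 14.5 ± 27.2 CPM in brain (log2 fold change 12.91, SE 0.28, adjusted p = 4.5e-39). Ang4, an antimicrobial ribonuclease, had 1547, 2186, 1875 and 1024 CPM in small intestine and 126 ± 121 CPM in colon (log2 fold change 11.81, SE 0.28, adjusted p = 9.5e-36). Mptx2, a mucosal pentraxin of Paneth cells, ranged from 305 to 599.6 CPM in small intestine, against 1.89 ± 3.36 CPM in brain. All 3 genes were above every other library in each small intestine library, and the brain values of Itln1 and Mptx2 again rested on replicate 3 (55.3 and 6.91 CPM). Clca4b, of the calcium-activated chloride channel regulator family, was the other leading gene outside the lists, with 1208, 982, 810.0 and 756 CPM in small intestine, against 1.72 ± 3.26 CPM in brain.

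Brush border enzymes were higher without exception. All 16 tested hydrolases of the list were called higher, none lower, with a median log2 ratio of 8.56, and 14 of them lay above all 56 other libraries in each small intestine library. Sis, sucrase-isomaltase, which splits sucrose and starch fragments, had 1568, 1501, 1326 and 1715 CPM in small intestine, against 4.22 ± 7.88 CPM in brain and 2.22 ± 1.74 CPM in colon (log2 fold change 12.30, SE 0.21, adjusted p = 4.9e-41). Lct, the lactase that splits milk sugar, had 1609, 1099.9, 913 and 1457 CPM in small intestine and no read in colon, with 3.40 ± 2.86 CPM in brain (log2 fold change 11.36, SE 0.15, adjusted p = 2.4e-52). The highest small intestine library exceeded the lowest by 1.29 times for Sis and by 1.76 times for Lct, and all 4 were above any other library. Alpi, the intestinal alkaline phosphatase, had 954, 868, 862 and 1666 CPM in small intestine, with replicate 4 the highest, against 7.38 ± 3.32 CPM in colon (log2 fold change 11.78, SE 0.17, adjusted p = 2.3e-48). Treh, the trehalase, had 227, 185, 145 and 257 CPM in small intestine, and its next tissue was kidney at 25.4 ± 1.76 CPM. Naaladl1, a peptidase of the brush border, had 917, 848, 590.5 and 448 CPM, against 23.4 ± 11.4 CPM in colon, and the meprin subunit gene Mep1b had 1091, 846, 690.1 and 786 CPM, against 116 ± 11.7 CPM in kidney. Each of these genes was above all other libraries.

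The starts of the hydrolase genes are shown for Sis, Lct and Alpi, which had a mean of at most 7.38 CPM in colon. The 250 bases before each start, from RefSeq (build GRCm38.p6), were searched on both strands for 4 motifs, and capitals mark the matches. They were TTTATG, which CDX factors bind, GTTAAT, which HNF1 factors bind, CAAAGTCCA, which HNF4 factors bind, and AGATAA, which factors of the GATA family bind. All 3 genes are on the minus strand, and each line runs 5′ to 3′ towards the start.
Sis, chr3:72967864-72968113: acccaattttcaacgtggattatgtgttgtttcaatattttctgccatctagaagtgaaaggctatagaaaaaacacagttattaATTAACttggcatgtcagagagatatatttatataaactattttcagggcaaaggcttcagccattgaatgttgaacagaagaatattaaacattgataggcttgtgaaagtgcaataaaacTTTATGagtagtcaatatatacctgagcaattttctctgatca
Lct, chr1:128328319-128328568: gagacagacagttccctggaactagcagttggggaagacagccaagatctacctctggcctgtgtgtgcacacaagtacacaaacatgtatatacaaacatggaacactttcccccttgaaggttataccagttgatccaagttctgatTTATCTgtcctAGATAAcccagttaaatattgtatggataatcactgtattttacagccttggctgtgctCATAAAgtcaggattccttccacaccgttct
Alpi, chr1:87101607-87101856: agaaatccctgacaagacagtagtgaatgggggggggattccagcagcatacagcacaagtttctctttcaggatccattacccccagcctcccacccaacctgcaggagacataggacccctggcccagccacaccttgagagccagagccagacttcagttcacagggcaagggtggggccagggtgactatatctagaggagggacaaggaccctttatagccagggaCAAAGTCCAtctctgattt
Sis held TTTATG from 43 to 38 bases before the start and GTTAAT, on the other strand, from 165 to 160. Lct held TTTATG on the other strand from 31 to 26 and AGATAA at 101 to 96 and at 90 to 85. Alpi held CAAAGTCCA from 19 to 11. No match overlapped another. Over all 32851 promoters of the RefSeq table, cut to the same 250 bases, TTTATG was present in 10.8%, GTTAAT in 6.43%, CAAAGTCCA in 0.384% and AGATAA in 9.99%. A match is a description of letters and says nothing about binding.

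The proteins that build the brush border were higher as a group too: 12 of 12 tested genes were called higher, with a median log2 ratio of 8.09. Vil1, the actin bundler villin, had 2030.2, 1575, 1230.2 and 1536 CPM in small intestine and 392 ± 46.1 CPM in colon. Myo1a, the myosin that ties the actin core to the membrane, had 1329, 980.5, 828 and 1074 CPM in small intestine and 290.2 ± 24.6 CPM in colon, and the microvillus cadherin gene Cdhr2 had 1088, 805, 720.0 and 913 CPM, against 299.9 ± 40.8 CPM. These genes were above all other libraries, but colon was closer than for the hydrolases. Against colon alone, where 15.6% of tested genes were called higher and 8.38% lower, 9 of the 12 structural genes were called higher, against 15 of 16 hydrolases. Cdhr5, a partner of Cdhr2, was not among them, with 1254, 964, 784 and 1068 CPM in small intestine and 695 ± 90.2 CPM in colon (log2 fold change against colon 0.55, SE 0.21, adjusted p = 0.031).

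Transporters of sugars, amino acids and peptides were called higher in all 15 tested cases, with a median log2 ratio of 6.38. Slc5a1, the sodium-glucose cotransporter SGLT1, had 1857, 1613, 1182 and 1757 CPM in small intestine, against 136 ± 13.1 CPM in colon (log2 fold change 9.41, SE 0.19, adjusted p = 2.1e-43). Slc15a1, the peptide transporter PepT1, had 676, 569.6, 413 and 447 CPM in small intestine, against 45.7 ± 17.2 CPM in colon (log2 fold change 9.06, SE 0.15, adjusted p = 1.4e-47). Neither overlapped any other tissue. Transporters of the kidney tubule were shared with kidney. Slc6a19, the main carrier of neutral amino acids, had 529, 376, 322 and 374 CPM in small intestine and 272 ± 49 CPM in kidney, a difference that did not pass the fold threshold (log2 fold change against kidney 0.56, SE 0.20, adjusted p = 0.013). Slc7a9, a cystine carrier, had 267 ± 42.5 CPM in small intestine and 189 ± 4.54 CPM in kidney. Slc2a2, the basolateral glucose transporter GLUT2, was lower in small intestine than in liver, with 355, 231, 216 and 364 CPM in small intestine and 593 ± 81.9 CPM in liver (log2 fold change against liver -1.03, SE 0.18, adjusted p = 1.6e-06). That call was lost with library totals, where the log2 fold change was -0.23, and without replicate 2 or 3. Of the list, 6 genes were called higher and 2 lower than in kidney, where 18.9% of all tested genes were called higher and 18.6% lower.

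Genes for vitamin and mineral uptake were less uniform, with 13 of 18 called higher, none lower and a median log2 ratio of 4.10. Cubn and Amn, the receptor pair that takes up vitamin B12 bound to intrinsic factor, were not called against kidney: Cubn had 469, 302, 284 and 290.0 CPM in small intestine and 366 ± 22.4 CPM in kidney (log2 fold change against kidney -0.12, SE 0.19, adjusted p = 0.61), while Amn had 289 ± 61.6 CPM in small intestine and 182 ± 14.7 CPM in kidney. Slc34a2, a phosphate carrier, had 271, 260.2, 226 and 137 CPM in small intestine and 926 ± 55.4 CPM in lung, and all other tissues lay below these 2. Vdr, the vitamin D receptor, had 358, 289, 316 and 334 CPM in small intestine and 195 ± 41.4 CPM in colon, and the zinc carrier gene Slc39a4 had 353 ± 38.4 CPM, against 203 ± 39.9 CPM. The riboflavin carrier gene Slc52a3 had 152, 140.3, 95.4 and 67.3 CPM in small intestine, against 30.5 ± 3.38 CPM in colon, with replicates 3 and 4 the lowest. All of these were called higher than the mean of the other 14 tissues.

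Genes of fat absorption were called higher in 18 of 20 tested cases, none lower, with a median log2 ratio of 8.33. Npc1l1, the cholesterol importer, had 848, 720.3, 494 and 634 CPM in small intestine and 1.69 ± 1.17 CPM in brain, the next tissue (log2 fold change 11.37, SE 0.13, adjusted p = 7.6e-51). Apoa4, an apolipoprotein of chylomicrons, had 2736, 1649, 1254 and 2415 CPM in small intestine, against 88.2 ± 17 CPM in liver (log2 fold change 11.28, SE 0.15, adjusted p = 1.9e-50). In these genes no other library came near. Apoa1, the main protein of high-density lipoprotein, had 13551, 9779, 7445 and 9775 CPM in small intestine and 13336 ± 2997 CPM in liver, a difference that was not called (log2 fold change against liver -0.40, SE 0.34, adjusted p = 0.35). Abcg5 and Abcg8, the paired pump that returns plant sterols to the lumen, had 281 ± 44.2 and 204 ± 23.6 CPM in small intestine, against 136 ± 24.9 and 131 ± 22 CPM in liver. Mttp, which loads lipid onto apolipoprotein B, was higher than in liver, with 811, 636, 583 and 765 CPM in small intestine and 262 ± 11 CPM in liver (log2 fold change against liver 1.41, SE 0.16, adjusted p = 1.3e-11). The call of Abcg5 as higher than in liver lay at the threshold, with 0.96 without replicate 4. Fabp1, the liver fatty acid binding protein, had 2201, 1539, 1289.6 and 2752 CPM in small intestine and 8055 ± 1617 CPM in liver, and it was called lower against liver (log2 fold change against liver -2.05, SE 0.29, adjusted p = 1.8e-08). Over the list, 9 genes were called higher than in liver and 5 lower, where 22.1% of all tested genes were called higher and 15.5% lower.

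Genes of vitamin A handling were higher for the most part, and several were higher still in liver. Rbp2, the retinol carrier of enterocytes, had 1859.9, 1212, 947 and 1922 CPM in small intestine, against 21.1 ± 8.51 CPM in colon (log2 fold change 11.11, SE 0.15, adjusted p = 3.8e-52). Isx, the homeobox gene that limits carotenoid uptake, had 92.8, 105, 65.8 and 52.7 CPM in small intestine and 45.4 ± 25.2 CPM in colon, and Bco1, which cleaves β-carotene, had 7.85, 9.15, 26.3 and 8.69 CPM in small intestine and 9.02 ± 2.28 CPM in liver. The single high value of Bco1 was replicate 3. Rdh7 and Adh1, which oxidise retinol, were higher than the mean of the other tissues but lower than in liver, with 270.5 ± 52.5 and 341 ± 82.6 CPM in small intestine, against 2429 ± 17.4 and 3546 ± 316 CPM in liver. Scarb1, a receptor for high-density lipoprotein, was the list member called lower, with 12.5, 9.15, 21.2 and 20.6 CPM in small intestine and 239 ± 16.9 CPM in liver (log2 fold change -1.43, SE 0.25, adjusted p = 1.5e-06). In all, 7 of 10 members were called higher, with a median log2 ratio of 3.40.

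Of genes of fructose and sugar metabolism, 2 were called higher and 5 lower than in liver, although most were higher than in the mean of the other tissues. Over all tested genes 22.1% were called higher than in liver and 15.5% lower. Khk, ketohexokinase, had 462, 374, 350.1 and 526 CPM in small intestine, 753 ± 179 CPM in liver and 595 ± 22.4 CPM in kidney. The gluconeogenic genes G6pc and Fbp1 had 33.3 ± 6.17 and 52.1 ± 13.6 CPM in small intestine, against 1320.5 ± 398 and 1759 ± 248 CPM in liver. Those levels lay below liver and kidney and above the remaining 12 tissues in their means. Hk1, the hexokinase of most tissues, was called lower, with 7.85, 17, 9.72 and 13.6 CPM in small intestine, against 149 ± 10.7 CPM in brain (log2 fold change -2.22, SE 0.15, adjusted p = 1.9e-19). Of 11 genes 7 were called higher and 1 lower, with a median log2 ratio of 4.17.

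The enzymes that make citrulline were higher and an enzyme that uses it was lower. Cps1, which makes carbamoyl phosphate, had 388, 444, 492 and 389 CPM in small intestine, against 4129 ± 643 CPM in liver and 10.1 ± 5.70 CPM in colon. Otc, which makes citrulline, had 190.1, 165, 167 and 180.3 CPM in small intestine, against 954 ± 141 CPM in liver and 14.8 ± 4.11 CPM in colon. For each the small intestine libraries lay below all liver libraries and above the libraries of the other 13 tissues. Ass1, which consumes citrulline on the way to arginine, had 2.31, 6.54, 3.96 and 2.17 CPM in small intestine, against 1775 ± 408 CPM in liver and 608 ± 39.8 CPM in kidney (log2 fold change -1.91, SE 0.26, adjusted p = 7.0e-09). Nags, which makes the activator of Cps1, had 52.8 ± 5.73 CPM in small intestine and 66.6 ± 11.6 CPM in liver (log2 fold change against liver -0.33, SE 0.23, adjusted p = 0.24), and Oat, which makes ornithine, had 863 ± 111 and 909 ± 151 CPM. Arg2, the mitochondrial arginase, and Aldh18a1, which starts ornithine synthesis from glutamate, were highest in small intestine, with 78.8 ± 15.4 and 115 ± 6.29 CPM, against 5.87 ± 0.114 CPM in kidney and 27.1 ± 7.12 CPM in colon. Of the 10 members 7 were called higher and 1 lower, with a median log2 ratio of 3.38.

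All 8 tested genes of bile acid uptake and signalling were called higher, with a median log2 ratio of 6.68. Fabp6, the ileal bile acid binding protein, had 4716, 4896, 3763 and 2104 CPM in small intestine, against 12.6 ± 24.5 CPM in brain (log2 fold change 11.53, SE 0.25, adjusted p = 1.1e-42). Fgf15, the hormone that the ileum sends to the liver, had 63.7, 64.5, 43.2 and 19.5 CPM in small intestine, and no other tissue averaged more than the 0.183 ± 0.367 CPM of liver. Slc10a2, the apical bile acid importer, had 106, 71.5, 66.2 and 14.1 CPM in small intestine and 153 ± 20.9 CPM in kidney, where it was higher (log2 fold change against kidney -1.24, SE 0.35, adjusted p = 0.003). Replicate 4 was the lowest small intestine library for each of these 3 genes. Without it the log2 fold change of Slc10a2 against kidney was -0.91 and was not called, and DESeq2's Wald test gave an adjusted p of 0.36 with all libraries. The basolateral exporter genes Slc51a and Slc51b had 451 ± 77.2 and 198 ± 42.4 CPM in small intestine, against 70.3 ± 42 and 56.4 ± 23.4 CPM in colon. Nr1h4, the bile acid receptor FXR, was lower than in liver, with 58.2, 58.4, 64.4 and 41.8 CPM in small intestine and 227 ± 21.7 CPM in liver (log2 fold change against liver -2.02, SE 0.23, adjusted p = 4.8e-11).

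Xenobiotic enzymes and pumps were called higher in all 26 tested cases, with a median log2 ratio of 7.32. Against liver, 12 were called higher and 7 lower, where 22.1% of all tested genes were called higher and 15.5% lower. Against colon 16 were called higher and 1 lower, where the shares over all tested genes were 15.6% and 8.38%. Cyp3a11, a main drug-oxidising cytochrome, had 516, 455, 278 and 696 CPM in small intestine and 3789 ± 434 CPM in liver (log2 fold change against liver -2.96, SE 0.23, adjusted p = 1.2e-15). Cyp2c66 was close to absent elsewhere, with 48.5, 70.2, 64.8 and 132 CPM in small intestine and 0.871 ± 0.688 CPM in colon (log2 fold change 9.85, SE 0.26, adjusted p = 8.4e-25). Cyp2c65, its neighbour in the same family, was shared with colon, with 184, 180.0, 154 and 226 CPM in small intestine and 147 ± 81.1 CPM in colon (log2 fold change against colon 0.33, SE 0.28, adjusted p = 0.39). Reads of these related cytochromes could be split between copies. Cyp4f14, which oxidises fatty acids and vitamins, had 965, 829, 654 and 759.7 CPM in small intestine and 444 ± 11.7 CPM in liver, and Ces2a, a carboxylesterase, had 307 ± 52.4 and 358 ± 40.7 CPM.

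Goblet cell genes were called higher in all 12 tested cases, with a median log2 ratio of 8.45, but none was called higher than in colon and 6 were called lower. Over all tested genes 15.6% were called higher than in colon and 8.38% lower. Muc2, the gel-forming mucin, had 1333, 1182, 1017 and 1037 CPM in small intestine and 11983 ± 1879 CPM in colon (log2 fold change against colon -3.39, SE 0.34, adjusted p = 2.1e-12). Agr2, which helps fold mucins, had 630.0 ± 45.2 CPM in small intestine and 2798 ± 309 CPM in colon. In both cases the small intestine libraries lay below all 4 colon libraries and above all others. Zg16, a lectin of the mucus layer, had 9474, 7852, 5597 and 7662 CPM in small intestine and 6804 ± 1267 CPM in colon, so the 2 tissues overlapped (log2 fold change against colon 0.17, SE 0.75, adjusted p = 0.92). Tff3, a trefoil peptide, and Spink4 had 3830.3 ± 498 and 2665 ± 517 CPM in small intestine, against 2174 ± 275 and 1958 ± 391 CPM in colon. Retnlb, the resistin-like protein of goblet cells, named after its values were seen, was among the called genes with a ratio under 1, with 0, 1.74, 0 and 0 CPM in small intestine, against 139 ± 42.8 CPM in colon.

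Enteroendocrine genes were called higher in 17 of 18 tested cases, with a median log2 ratio of 5.51. Against colon, 4 were called higher and 4 lower, where 15.6% of all tested genes were called higher and 8.38% lower. Sct, secretin, had 144, 110.3, 89.2 and 115 CPM in small intestine and 57.3 ± 32.3 CPM in colon. Sst, somatostatin, had 137, 105, 103 and 109.7 CPM in small intestine, 60.2 ± 19.8 CPM in colon and 208 ± 14.3 CPM in brain. The small intestine libraries of Sst lay between brain and colon. Pyy, which slows transit, was lower than in colon, with 31.4, 33.6, 27.7 and 25.5 CPM in small intestine and 169.6 ± 30.6 CPM in colon (log2 fold change against colon -2.52, SE 0.23, adjusted p = 9.4e-11), and Gcg, the gene of glucagon-like peptides, had 24.2 ± 3.16 and 47.2 ± 6.20 CPM, which did not pass the fold threshold (log2 fold change against colon -0.96, SE 0.36, adjusted p = 0.031, or -1.50 and called with library totals). Gip, by contrast, had no read in colon. Chgb, a granule protein that is also neuronal, had 133 ± 13.8 CPM in small intestine, 176 ± 34.3 CPM in colon and 328 ± 11.8 CPM in brain. As an endocrine gene beside the hydrolases above, Gip is shown with the 250 bases before its start (RefSeq, build GRCm38.p6, plus strand), with capitals on the same motifs.
Gip, chr11:96024295-96024544: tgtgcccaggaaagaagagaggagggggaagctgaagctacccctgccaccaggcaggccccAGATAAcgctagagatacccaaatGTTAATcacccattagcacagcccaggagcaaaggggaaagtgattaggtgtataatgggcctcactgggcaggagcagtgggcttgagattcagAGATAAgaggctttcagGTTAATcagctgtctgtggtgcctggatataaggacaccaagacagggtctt
It held GTTAAT at 164 to 159 and at 52 to 47 bases before the start, and AGATAA at 188 to 183 and at 69 to 64. The window of Fabp2, which also separated small intestine from every tissue, held none of the 4 motifs.

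Tuft cell genes showed no common direction: 5 of 11 were called higher and 2 lower, with a median log2 ratio of 0.84. Over all tested genes 19.9% were called higher and 8.5% lower. Trpm5, the taste-pathway channel, had 7.38, 10.9, 10.8 and 11.4 CPM in small intestine, with replicate 1 the lowest, and 9.61 ± 3.49 CPM in colon (log2 fold change 5.47, SE 0.36, adjusted p = 3.0e-17), and Sh2d6 had 9.01 ± 2.04 and 16.2 ± 2.05 CPM. Pou2f3, the regulator of the lineage, had 0.923, 0.872, 2.88 and 1.63 CPM in small intestine, against 96.5 ± 5.90 CPM in skin, and it was not called in limma-trend, at 0.79. The members called lower, Alox5ap and Ptprc, are also leukocyte genes, with 6.69 ± 3.04 and 40.8 ± 8.42 CPM in small intestine, against 187 ± 10.8 CPM in bone marrow and 1169 ± 40.7 CPM in spleen. Without small intestine replicate 2 Alox5ap was at -0.83 and not called.

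Crypt stem cell genes were called higher in 12 of 14 cases, none lower, with a median log2 ratio of 2.64. Olfm4, secreted by crypt base cells, had 595, 846, 988 and 573 CPM in small intestine, against 64.2 ± 67 CPM in female reproductive tract and 0.210 ± 0.420 CPM in colon (log2 fold change 9.46, SE 0.21, adjusted p = 1.9e-41). Lgr5, the receptor that marks crypt stem cells, had 24.5, 31.4, 23.7 and 18.5 CPM in small intestine, 16.5 ± 7.66 CPM in liver and 6.96 ± 2.58 CPM in colon, so the difference was called against colon (log2 fold change against colon 1.83, SE 0.40, adjusted p = 1.9e-04) and not against liver. Ascl2, the stem cell factor, was not called against colon, with 8.77, 13.5, 10.8 and 14.1 CPM in small intestine and 12.4 ± 2.39 CPM in colon, as was Sox9, with 66.3 ± 15.4 and 76.4 ± 15.2 CPM. Prom1 was lower than in colon, with 49.4, 64.5, 66.9 and 65.7 CPM in small intestine and 190.2 ± 43.9 CPM in colon (log2 fold change against colon -1.63, SE 0.43, adjusted p = 0.0016). Cell cycle genes were called higher in 11 of 13 cases, with a median log2 ratio of 1.69. Birc5, a spindle protein, had 79.8, 81.1, 77.4 and 73.9 CPM in small intestine, below bone marrow at 322 ± 10.6 CPM, and Top2a had 149.8 ± 17.6 CPM in small intestine and 1019 ± 15.7 CPM in bone marrow.

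Of 20 transcription factors of the intestinal epithelium 19 were called higher and none lower, with a median log2 ratio of 5.58. Hnf4g had 83.1, 88.5, 70.5 and 88 CPM in small intestine, against 3.64 ± 1.03 CPM in kidney (log2 fold change 8.67, SE 0.21, adjusted p = 6.0e-32), whereas its relative Hnf4a was shared, with 485 ± 40.8 CPM in small intestine, 603 ± 90.5 CPM in liver, 413 ± 17.5 CPM in kidney and 396 ± 36.9 CPM in colon. Cdx2, the homeobox gene that sets intestinal identity, had 77.1, 70.2, 75.6 and 59.2 CPM in small intestine and 61 ± 18 CPM in colon, with no read in 10 of the other tissues. Cdx1 had 192 ± 32.1 CPM in small intestine and 306 ± 15 CPM in colon. With library totals Cdx1 was called lower than in colon, at -1.22. Creb3l3, a membrane-bound factor for lipid genes, was not called against liver, with 501, 314, 279 and 484 CPM in small intestine and 389 ± 95 CPM in liver (log2 fold change against liver 0.02, SE 0.18, adjusted p = 0.98). Gata4, which marks the first stretch of the intestine, had 104, 88.9, 86.4 and 126 CPM in small intestine, 117 ± 10.0 CPM in heart and 0.920 ± 0.698 CPM in colon (log2 fold change against colon 6.72, SE 0.42, adjusted p = 1.4e-18). Against colon, 7 of the 20 genes were called higher and 5 lower, where the shares over all tested genes were 15.6% and 8.38%.

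Hox genes, which encode position along the body, separated small intestine from colon and kidney. Of the 21 tested, 7 were called higher and 1 lower against all tissues, but 18 were called lower and 2 higher than in colon, and 18 lower and none higher than in kidney. Over all tested genes 19.9% were called higher and 8.5% lower against all tissues. The shares were 8.38% lower and 15.6% higher than in colon, and 18.6% lower and 18.9% higher than in kidney. Hoxa9 had 0, 0, 0.360 and 0 CPM in small intestine, against 39.2 ± 5.18 CPM in colon and 60.2 ± 5.35 CPM in kidney (log2 fold change against colon -7.95, SE 0.49, adjusted p = 1.1e-20). Hoxa10, Hoxc10 and Hoxd11 had no read in small intestine, against 37.3 ± 5.02, 1.27 ± 1.62 and 5.70 ± 4.16 CPM in colon. The 2 genes higher than in colon were Hoxc8 and Hoxc6, with 8.31, 9.15, 10.4 and 11.4 CPM for Hoxc8 in small intestine and no read in colon, and 7.22 ± 1.27 CPM for Hoxc6 in small intestine, against 0.659 ± 0.816 CPM in colon. The median log2 ratio of the list was -0.26. The member called lower than the mean of all other tissues, Hoxa9, was not called without brain replicate 3, liver replicate 4 and female reproductive tract replicates 3 and 4.

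**Figure D2:**
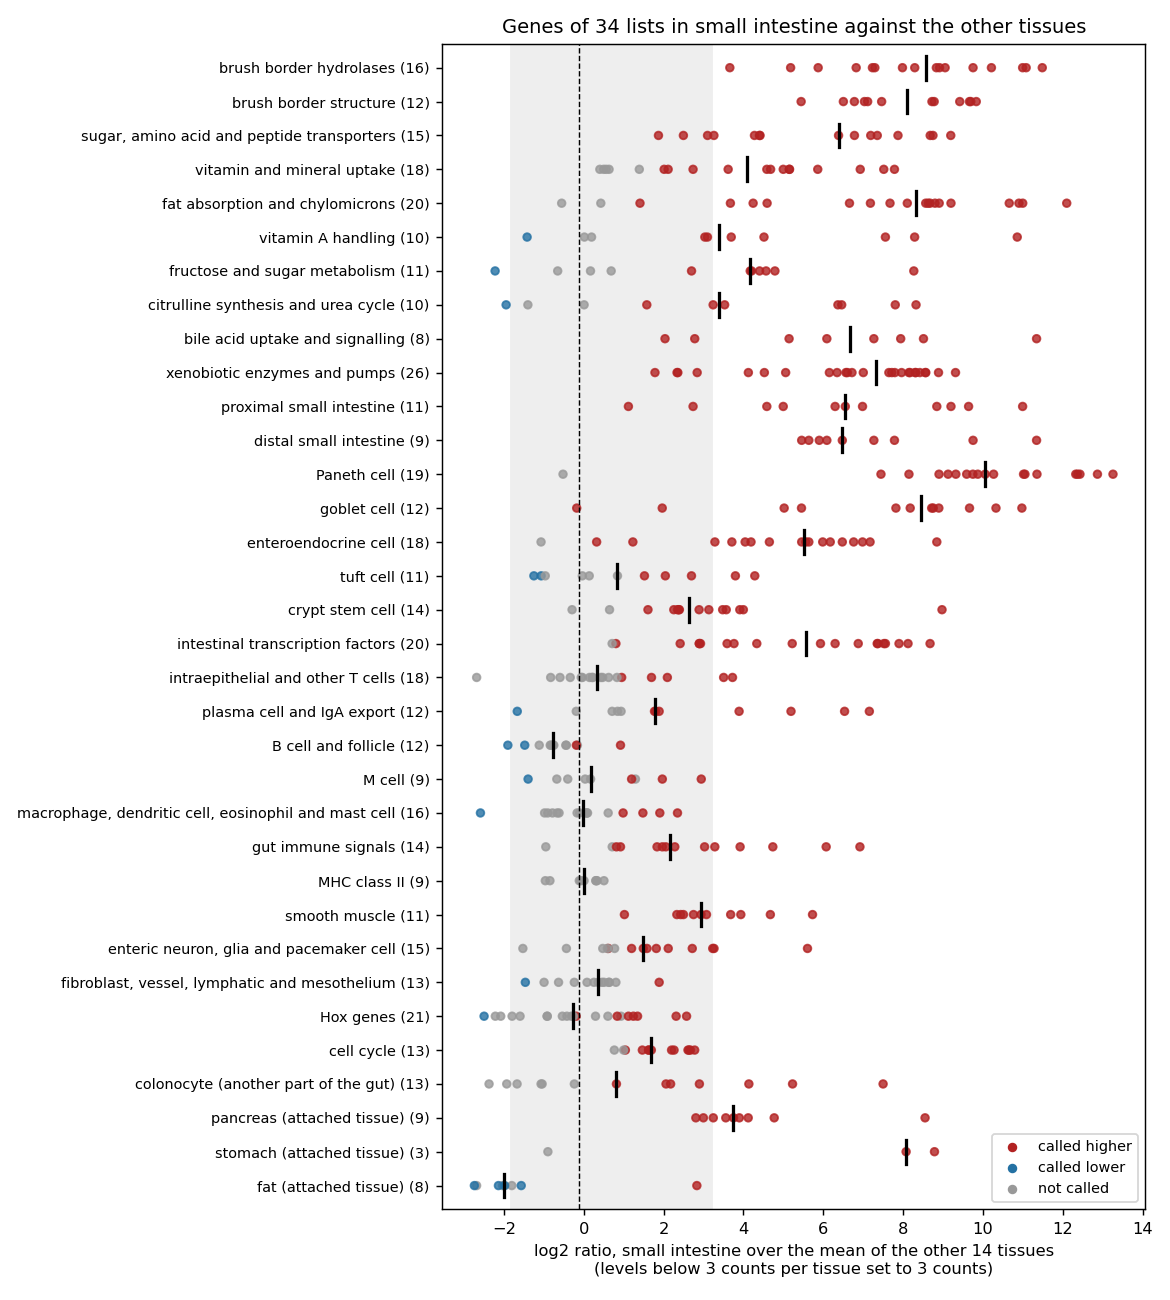
Log2 ratio of each tested gene of 34 lists (points, list size in brackets), small intestine over the mean of the other 14 tissues, with levels below 3 counts per tissue set to 3 counts. Red points were called higher, blue lower, grey neither; black bars are list medians, the dashed line is the median of all tested genes at -0.11 and the band holds their 5th to 95th percentile, -1.83 to 3.21.

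T cell genes were mostly not called against all tissues, where 19.9% of all tested genes were called higher and 8.5% lower. Of 18 T cell genes 5 were called higher and none lower, with a median log2 ratio of 0.33. Against colon, 13 were called higher and 1 lower, where 15.6% of all tested genes were called higher and 8.38% lower. Gzma, a granzyme of cytotoxic lymphocytes, had 101, 45.8, 47.9 and 107 CPM in small intestine, 76.8 ± 8.11 CPM in thymus and 2.64 ± 2.24 CPM in colon (log2 fold change against colon 4.75, SE 0.45, adjusted p = 3.0e-13). Gzmb had 17.5, 8.28, 14 and 16.8 CPM in small intestine and 0.869 ± 1.19 CPM in colon, and Tcrg-C1, a constant segment of the γδ T cell receptor, had 12, 4.79, 4.32 and 7.06 CPM in small intestine and 0.869 ± 1.19 CPM in colon (log2 fold change against colon 2.86, SE 0.64, adjusted p = 2.6e-04). The small intestine libraries of each were above all colon libraries. Cd8b1, of the CD8 β chain that conventional killer T cells carry, had 0.923, 1.74, 0.360 and 0.543 CPM in small intestine, against 794 ± 94 CPM in thymus, and it was not called. Cd7, a lymphocyte surface protein, had 13.8, 12.2, 14.4 and 23.4 CPM in small intestine, 41.5 ± 10.5 CPM in blood and 2.61 ± 2.33 CPM in colon.

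Plasma cell genes were mostly not called against colon. Igha, the constant region of IgA, had 2902, 4237, 3473 and 2864 CPM in small intestine and 3059 ± 684 CPM in colon (log2 fold change against colon 0.14, SE 0.52, adjusted p = 0.89), and the tissue ranges overlapped. Jchain, which joins IgA monomers, had 394, 639, 562 and 326 CPM in small intestine and 430.1 ± 87.9 CPM in colon, and Pigr, the epithelial receptor that exports IgA, had 1555, 1596, 1719.6 and 2388 CPM in small intestine, 1820.4 ± 115 CPM in liver and 1509 ± 197 CPM in colon. Ighm, the constant region of IgM, was called lower, with 38.8, 58.4, 73.4 and 41.3 CPM in small intestine, against 4853 ± 699 CPM in spleen (log2 fold change -1.65, SE 0.20, adjusted p = 1.1e-10). Of 12 members 7 were called higher and 1 lower, with a median log2 ratio of 1.79, and 1 was called higher than in colon. B cell and follicle genes had a median log2 ratio of -0.76, with 2 called higher, Cxcl13 among them, and 2 lower, Bcl6 and Cr2, of 12. Over all tested genes 19.9% were called higher and 8.5% lower, and 15.6% were called higher than in colon. The count of B cell and follicle genes called higher was near the first of these shares. Cr2, the complement receptor of follicles, had 3.69, 4.79, 6.84 and 3.26 CPM in small intestine, against 592 ± 46.3 CPM in spleen.

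M cell genes were called higher in 3 of 9 cases and lower in 1, with a median log2 ratio of 0.17, where 19.9% of all tested genes were called higher and 8.5% lower. Gp2, the bacterial uptake receptor of M cells, had 1.38, 3.05, 2.52 and 5.97 CPM in small intestine and 11.3 ± 22 CPM in colon, and it was not called. Macrophage, dendritic, eosinophil and mast cell genes had a median log2 ratio of -0.02, with 4 of 16 higher and 1 lower, shares close to those over all tested genes. Itgax, an integrin of dendritic cells, had 21.7, 22.7, 29.1 and 28.2 CPM in small intestine and 6.34 ± 1.72 CPM in colon (log2 fold change against colon 1.99, SE 0.29, adjusted p = 5.7e-08), and Siglecf, of eosinophils, had 3.23, 3.49, 4.32 and 2.72 CPM in small intestine and 2.71 ± 0.546 CPM in colon. Cpa3 and Ms4a2, of mast cells, were at or near 0 in small intestine, with 1 library at 0.462 CPM for Cpa3 and none with a read of Ms4a2, against 22.8 ± 3.33 and 11.5 ± 2.10 CPM in bone marrow. None of the 9 MHC class II genes was called against all tissues, but 5 were called higher than in colon, 8 than in liver and 8 than in kidney. Over all tested genes the shares called higher were 15.6% against colon, 22.1% against liver and 18.9% against kidney. H2-Ab1 had 324, 389, 447 and 530.0 CPM in small intestine and 160.4 ± 25 CPM in colon (log2 fold change against colon 1.40, SE 0.17, adjusted p = 1.4e-09). With library totals it was 0.86 and not called.

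Signals that draw or license immune cells in the gut were called higher in 12 of 14 cases, none lower, with a median log2 ratio of 2.17. Ccl25, the chemokine that recruits lymphocytes to the small intestine, had 827, 791, 718 and 771 CPM in small intestine, 433 ± 29.4 CPM in thymus and 8.46 ± 2.12 CPM in colon (log2 fold change 6.03, SE 0.09, adjusted p = 7.9e-53). Its small intestine libraries lay above all others, and thymus above the remaining tissues. Ccl28, which draws IgA cells to the colon and other mucosae, was lower than in colon, with 13.4, 21.8, 18 and 16.3 CPM in small intestine and 39.6 ± 13.7 CPM in colon (log2 fold change against colon -1.19, SE 0.48, adjusted p = 0.044). Duox2, a peroxide-making oxidase, was lower than in colon as well, with 16.6, 19.6, 15.8 and 8.69 CPM in small intestine and 51.3 ± 13 CPM in colon. Nlrp6, an epithelial sensor, had 249.7 ± 15.3 CPM in small intestine, 178 ± 21.6 CPM in liver and 158 ± 21.2 CPM in colon, and Nos2, nitric oxide synthase, had 11.1, 21.4, 10.8 and 3.26 CPM in small intestine and 0.210 ± 0.420 CPM in colon.

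The wall of the organ was present in the libraries. All 11 smooth muscle genes were called higher than in the other 14 tissues, with a median log2 ratio of 2.94, whereas 8 were called lower and 1, Hhip, higher than in colon. Over all tested genes 8.38% were called lower and 15.6% higher than in colon. Actg2, the enteric smooth muscle actin, had 309.7, 422, 409 and 253 CPM in small intestine and 1597 ± 129 CPM in colon (log2 fold change against colon -2.19, SE 0.30, adjusted p = 2.1e-08), and Myh11 had 387 ± 32.8 CPM in small intestine and 1167 ± 161 CPM in colon. Of 15 genes of enteric neurons, glia and pacemaker cells 10 were called higher, with a median log2 ratio of 1.49, and 8 were lower than in colon. Vip, a relaxing neuropeptide, had 24.9, 35.7, 30.2 and 28.8 CPM in small intestine and 56.5 ± 6.50 CPM in colon (log2 fold change against colon -0.91, SE 0.22, adjusted p = 7.2e-04), and was not called. Fibroblast, vessel, lymphatic and mesothelial genes had a median log2 ratio of 0.36, with Col3a1 higher (151, 212, 345 and 243 CPM in small intestine, 910.2 ± 228 CPM in female reproductive tract) and Pecam1 lower (22.6, 36.2, 41 and 33.1 CPM in small intestine, 531 ± 32.3 CPM in lung).

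Genes of tissues attached to the intestine were looked at because they could be taken along. The 12 pancreas genes together summed to 855, 988, 939.9 and 1215 CPM in small intestine, most of it Clps, procolipase, at 822, 946, 799 and 722 CPM, and the next tissue of Clps was spleen at 269.9 ± 519 CPM. Prss2, Ctrb1, Cpa1, Pnlip and Try4 were highest in replicate 4, for example Ctrb1 at 8.31, 12.2, 35.3 and 157 CPM in small intestine, against 462 ± 890.3 CPM in spleen, where 1 library stood at 1797 CPM. All 9 tested pancreas genes were called higher, but without replicate 4 only 2 were, and Cpa1 and Pnlip were not. The 11 stomach genes summed to 19.4, 31.8, 490.1 and 3737 CPM in small intestine, and Tff2 and Gkn3 made up most of it, while Atp4b, of the acid pump, had no read and Atp4a had 0, 0.436, 0.360 and 0 CPM. Fat cell genes were mostly lower or not called, with 1 of 8 higher and 4 lower. Over all tested genes 19.9% were called higher and 8.5% lower. Adipoq, adiponectin, had 1.85, 3.49, 4.32 and 6.52 CPM in small intestine, against 479 ± 311 CPM in mesenteric lymph node, and Cidec, a lipid droplet protein, was the member called higher, at 72, 58, 50.7 and 70.1 CPM in small intestine. The part of attached tissue in any other result was not tested.

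The genes lower in small intestine given here were taken from 10 chosen by a rule that asked for 50 CPM or more in the other tissues and for 10 tissues wholly above small intestine, which 220 genes met. The lowest log2 fold change was that of Cyp2f2, a lung and liver cytochrome, with 0, 0.436, 0.360 and 0 CPM in small intestine, against 3179.9 ± 179.5 CPM in lung (log2 fold change -5.19, SE 0.79, adjusted p = 9.3e-08). Hp, the haemoglobin scavenger haptoglobin, had 1.85, 2.18, 1.44 and 2.17 CPM in small intestine, against 2559.6 ± 393 CPM in liver. Lpl, which releases fatty acids from circulating lipoproteins, had 14.8, 11.8, 21.9 and 26.1 CPM in small intestine, against 9151 ± 164 CPM in heart (log2 fold change -3.45, SE 0.43, adjusted p = 6.0e-10). Scd1, a fatty acid desaturase, had 47.5, 24.8, 42.1 and 55.9 CPM in small intestine, against 5631 ± 1759.7 CPM in liver, and Hsd11b1, which activates glucocorticoids, had 5.08, 4.79, 5.04 and 2.72 CPM, against 1066 ± 109 CPM. Cmah, which modifies sialic acid, had 2.43 ± 0.310 CPM in small intestine, against 207 ± 9.75 CPM in blood. Another 3, Retnla, Tmcc2 and Itga2b, lay between -2.91 and -3.35 in log2 fold change, and Retnla was not called (adjusted p = 0.098) once brain replicate 3, liver replicate 4 and female reproductive tract replicates 3 and 4 were left out.

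A gene was called restricted when it was called higher, averaged at least 5 CPM, reached 4 times the mean of the next tissue and lay above all 56 other libraries in each small intestine library. In all 152 genes met this, 0.819% of those tested, of which 132 were protein-coding. The next tissue was colon for 58, brain for 24, kidney for 16 and liver for 12, and the brain ranking rests in part on replicate 3. Genes with Slc symbols, which name solute carriers but also the scaffold protein gene Slc9a3r1, made up 12 of the 152, or 7.89%, against 1.82% of all tested genes. Among these genes were 15 with Defa symbols. At the threshold, Tmem236 stood just inside with a ratio of 4.06 to the next tissue, and 38 further genes had a ratio between 3 and 4.

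Genes that small intestine shared with exactly 1 other tissue, at no less than 25% of its own level there and under 10% in the other 13, numbered 90: 51 with colon, 21 with liver, 14 with kidney and 1 each with female reproductive tract, lung, skin and thymus. Besides the goblet genes above, those shared with colon were led by Crip1, with 8487, 7036, 5311 and 6419.8 CPM in small intestine and 1761 ± 291 CPM in colon (log2 fold change against colon 1.95, SE 0.25, adjusted p = 4.8e-09), and Lgals4, a galectin of the epithelium, with 3187 ± 448 and 2644 ± 205 CPM. Shared with liver, besides Apoa1, Fabp1 and Mttp, were Apoc3, an inhibitor of lipoprotein lipase, with 2787, 1560.1, 1434 and 2738 CPM in small intestine and 10535 ± 509.5 CPM in liver, and Cyp4v3, with 539 ± 109.7 and 343 ± 9.72 CPM. Shared with kidney, besides Slc6a19 and Cubn, were Guca2b, the hormone uroguanylin that drives salt loss, with 2596, 1886, 1266 and 1983 CPM in small intestine and 541 ± 40.4 CPM in kidney (log2 fold change against kidney 1.84, SE 0.37, adjusted p = 2.8e-05, but adjusted p = 0.09 in DESeq2's Wald test), Ggt1, which cleaves glutathione, with 405 ± 106 and 488 ± 29.7 CPM, and Cda, cytidine deaminase, with 422 ± 88.3 and 255 ± 26.7 CPM. The others were Prap1 with female reproductive tract, where the mean of 1419 ± 2608 CPM rested mostly on 1 library at 5324 CPM, Slc34a2 with lung, Cst6 with skin (103 ± 21.1 CPM in small intestine, 863 ± 187 CPM in skin) and Ccl25 with thymus. The heat map shows tissue means of 51 genes grouped by role, among them Apoa1, which small intestine shared with liver.

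**Figure D3:**
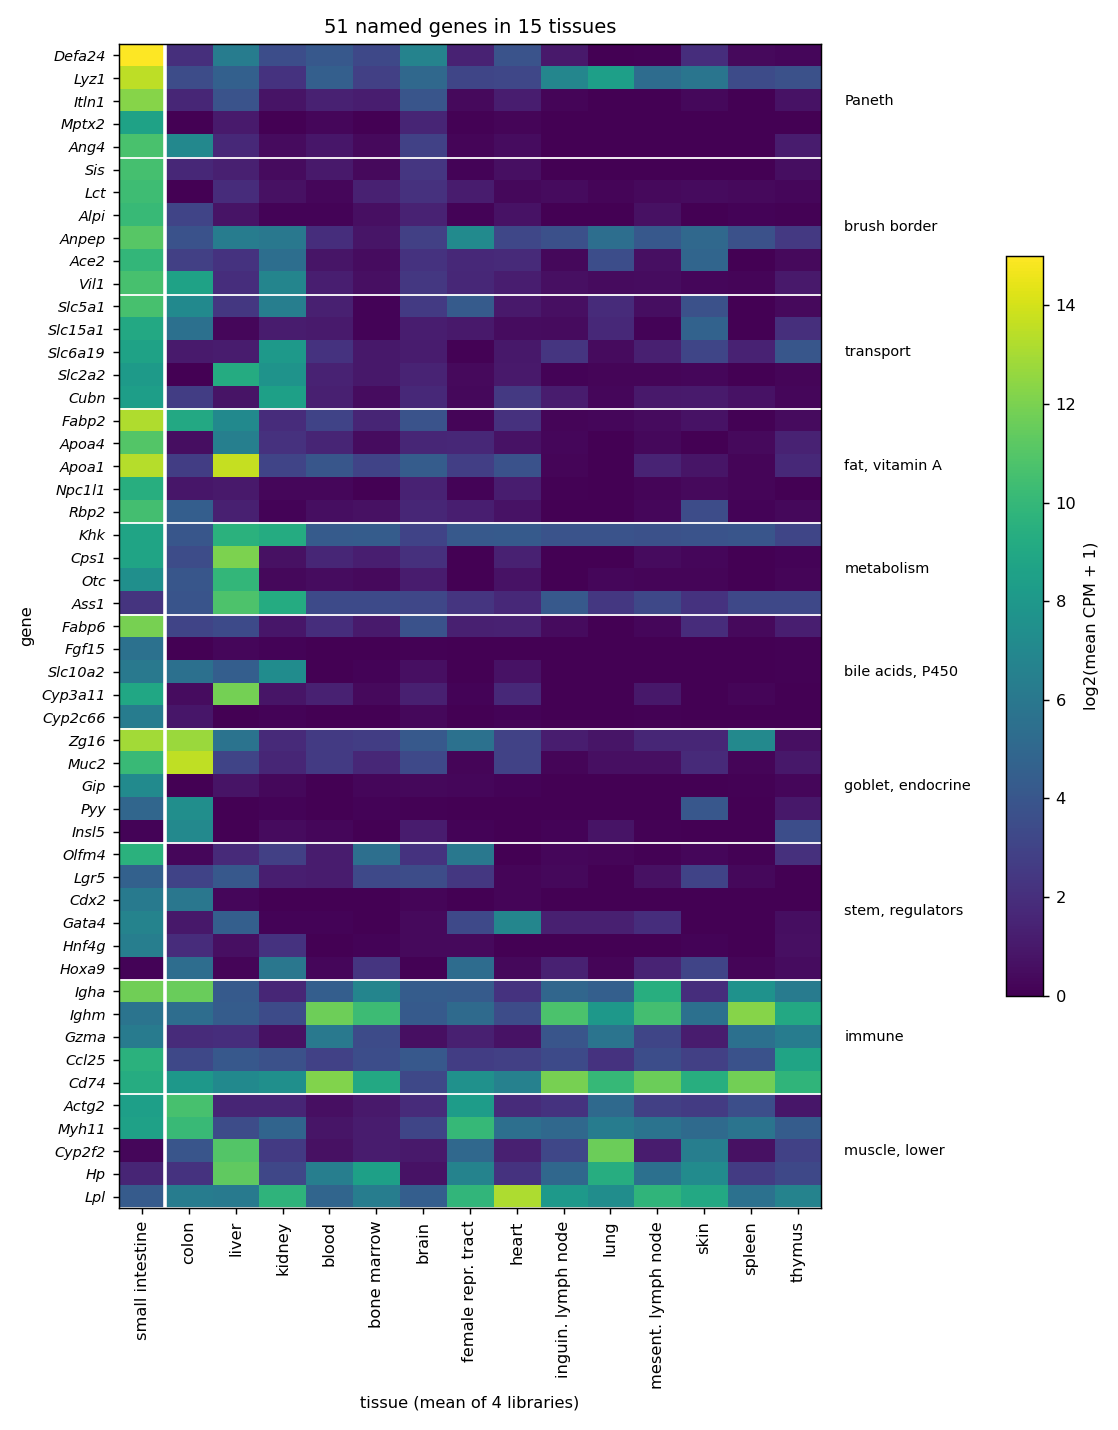
Log2(mean CPM + 1) of 51 genes (down the page, grouped by role) in 15 tissues (across, means of 4 libraries), with small intestine at the left. Paneth and brush border genes such as Defa24 and Sis are brightest in the first column, Apoa1 and Cps1 are bright in liver too, and Muc2 is brighter in colon.

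Set against colon alone, 2903 genes were called higher and 1555 lower, and with library totals alone 1726 higher and 3244 lower, so the share of higher calls was 34.7% in place of 65.1%. The median log2 fold change over all genes was 0.13 with TMM and -0.29 with totals. Against liver, 4104 were higher and 2874 lower, or 7492 and 1615 with totals, a share of higher calls of 82.3% in place of 58.8%, where the median was 0.91 in place of 0.14. Against kidney, 3516 were higher and 3449 lower. These comparisons share the small intestine libraries and are given side by side. The 1555 genes called lower than in colon were 8.38% of those tested. Among 1413 protein-coding genes with 50 CPM or more that were called higher than the mean of the other tissues, 599 were also called higher than colon and 62 lower, 883 higher than liver and 125 lower, and 905 higher than kidney and 54 lower. Colonocyte genes from the list were lower than in colon in 12 of 13 cases, for example Slc26a3, a chloride exchanger, at 124, 105, 95.7 and 109 CPM in small intestine and 366 ± 114 CPM in colon (log2 fold change against colon -1.75, SE 0.20, adjusted p = 1.0e-10), and Car4, a carbonic anhydrase, at 131 ± 22.3 and 596 ± 174 CPM. Insl5, a hormone of colonic endocrine cells, named after its values were seen, had a read in 1 small intestine library, at 0.462 CPM, against 132 ± 50.9 CPM in colon.

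**Figure D4:**
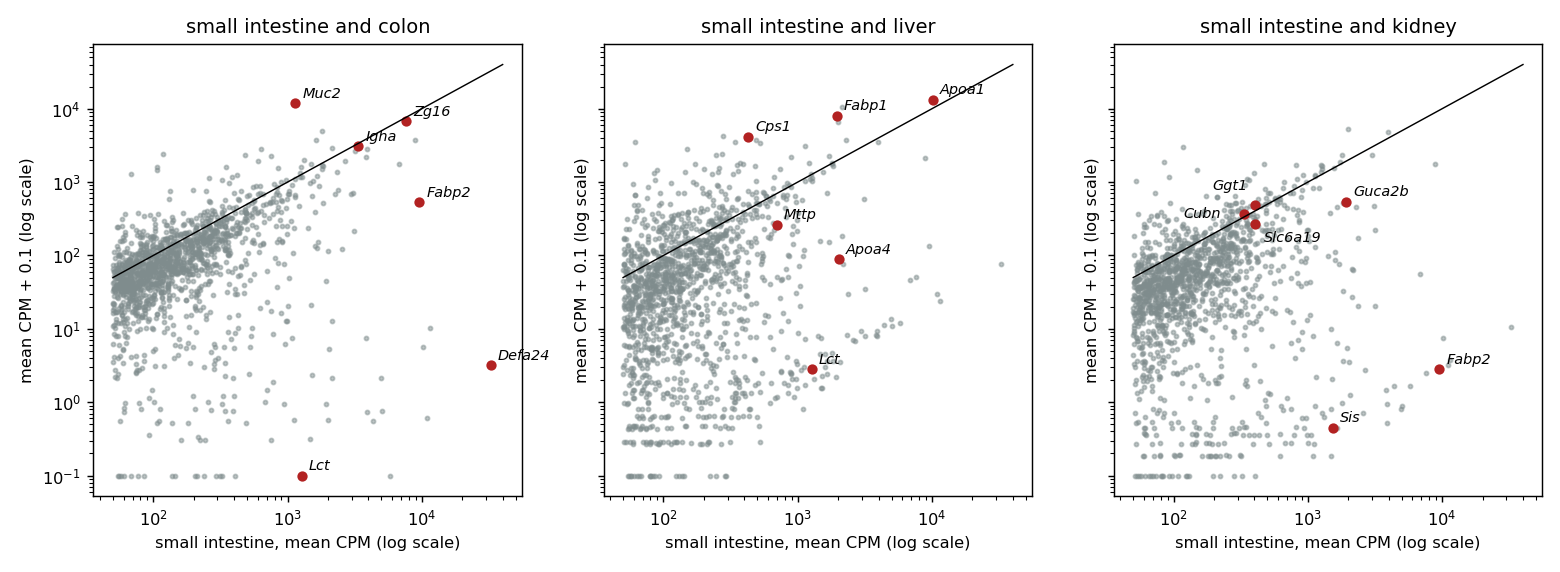
Mean CPM of 1413 protein-coding genes (points) in small intestine (x axis) and in colon, liver or kidney (y axis, + 0.1), all on log scales with the line of equal levels; these genes were chosen for being higher in small intestine than in the mean of the other tissues. The mean was higher in colon for 281 of them, in liver for 277 and in kidney for 199, and the named genes are those given in the text.

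The 4 small intestine libraries differed from each other in many genes of the first and the last stretch. The genes with the largest spread at 100 CPM or more were Tff2, Gkn3, S100g, Reg1, Iglc3, Slc4a7, Sgk1, Papss2, Tmigd1 and Defa22. Tff2, a trefoil peptide of stomach and duodenal glands, had 8.77, 13.5, 335 and 2636 CPM in small intestine, and Gkn3, a gastric mucosal protein, had 6.92, 13.9, 118 and 583 CPM. S100g, the calcium-binding protein calbindin-D9k, had 37.4, 178, 499 and 1183 CPM in small intestine and Reg1, a regenerating protein, had 211, 590.0, 904 and 2302 CPM. In these 4 genes replicate 4 was highest and replicate 3 next. Muc6, Slc40a1, Tmprss15 and Nts were chosen after their values were seen, and Muc6 and Tmprss15 did not pass the filter on low counts. Muc6, the mucin of duodenal and gastric glands, had 2.77, 1.31, 30.6 and 482 CPM, with replicate 4 highest and replicate 3 next. The iron exporter gene Slc40a1 had 12, 30.5, 49.7 and 104 CPM, and the enteropeptidase gene Tmprss15, whose product starts protein digestion in the duodenum, had 0.923, 3.05, 13.3 and 26.6 CPM, in the same order at the top.

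Some genes of the last stretch ran the other way. Mep1b and Cubn of the distal list were highest in replicate 1 but not lowest in replicate 4. Fgf15 and Slc10a2, above, were lowest in replicate 4, and Nts, the neurotensin of ileal endocrine cells, had 98.8, 99.8, 66.2 and 50.5 CPM in small intestine. Of the named proximal genes, Gip, Lct, Fabp1 and Sct spread by less, and Lct and Sct were highest in replicate 1, with Fabp1 at 2201, 1539, 1289.6 and 2752 CPM. Summed over the list of proximal genes the libraries held 5169, 3867, 3713 and 6990.0 CPM, and over the list of distal genes 6714, 6436, 5055 and 3372 CPM. Replicate 4 was highest on the proximal list and lowest on the distal list. Fabp1 and Lct made up most of the proximal sum, at means of 1945 and 1270 CPM in a mean sum of 4935 CPM. Most of the distal sum was Fabp6, at a mean of 3870 CPM in a mean sum of 5394 CPM. Papss2, which makes the sulphate donor of the cell, and Slc4a7, a bicarbonate carrier, were highest in replicate 4, at 174, 208, 213 and 499 CPM for Papss2 and 64.6, 79.3, 99.7 and 216 CPM for Slc4a7. Sgk1, a kinase that raises sodium uptake, and Tmigd1, an adhesion protein, were lowest there, at 244, 216, 137 and 80.4 CPM for Sgk1 and 310.1, 255, 232 and 106 CPM for Tmigd1. Iglc3, an immunoglobulin light chain constant segment, had 359.5, 584, 133 and 66.3 CPM in small intestine, with replicate 2 highest and replicate 4 lowest. Paneth cell genes summed to 81579, 99211, 79308 and 55082 CPM in small intestine and were lowest in replicate 4, next to at most 565 CPM on average in any other tissue, which was kidney. Guca2b, the uroguanylin gene on that list, gave 541 CPM of the kidney sum. Whether the pieces of tissue came from different places along the intestine was not given in the labels and was not tested. Without replicate 4, the log2 fold change over the other tissues was 6.67 for Tff2 in place of 9.31, 6.56 for Gkn3 in place of 8.49, 3.97 for S100g in place of 4.97 and 13.57 for Defa24 in place of 13.45, and all 4 remained called. The counts of calls without it were 3639 higher and 1587 lower.

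**Figure D5:**
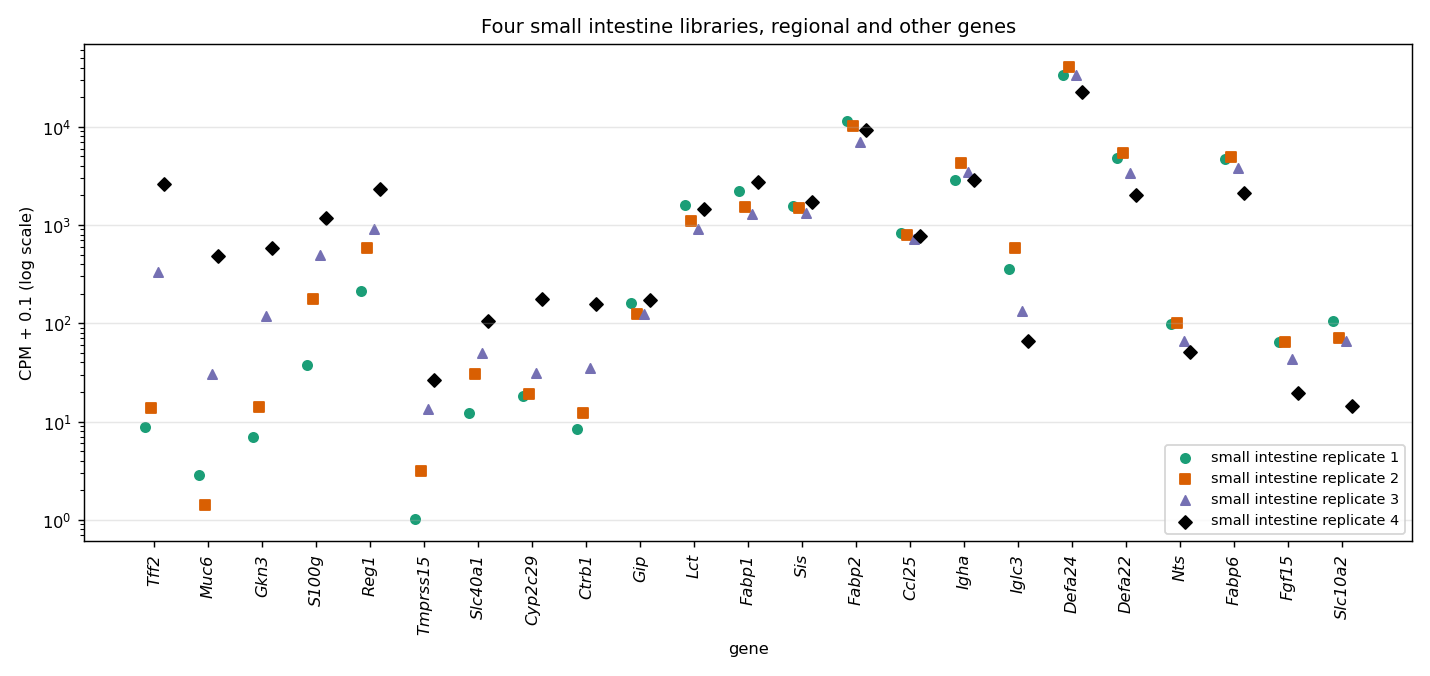
CPM + 0.1 on a log scale of 23 genes in the 4 small intestine libraries (symbols by replicate). From Tff2 to Ctrb1 replicate 4 is the highest point, for Fabp6, Fgf15 and Slc10a2 at the right it is the lowest, and Sis, Fabp2 and Ccl25 in the middle lie close together in all 4 libraries.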

How the data were processed

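RNA from 15 mouse tissues was read at its 3′ end with barcoded oligo(dT) primers, per the labels' protocols, which describe no molecular identifiers. The deposited table holds whole-number counts for 54532 genes in 60 libraries, and the submitters' processing notes name FastQC, STAR, featureCounts and mm10, with no versions, and do not say whether counting used strand. Of the genes 54495 matched GENCODE M21 and 17394 had no read. The libraries of small intestine held 2072584 to 3035803 counts, and that depth limits low genes: 3 counts correspond to 0.330 CPM over the tissue.

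From the counts, edgeR 4.0.16 (R 4.3.3) fitted 1 coefficient per tissue to all 60 libraries with TMM scaling and filterByExpr (minimum count 10, minimum total 15), and quasi-likelihood tests compared small intestine with the mean of the other 14 coefficients, and with colon, liver and kidney, with Benjamini-Hochberg adjustment over all genes tested. On simulated counts with 200 changed genes the fit recovered 100% at 3-fold and 6-fold and called 1 unchanged gene of 16213 tested. Those counts held no other tissue differences, 1 spread for all genes and changes only in well-counted genes. They cannot measure the errors of the real contrast, which has unread tissues and differences in RNA make-up. Alternatives were DESeq2 1.42.0 size factors and Wald test, limma-trend 3.58.1, library totals, no filter, nuclear protein-coding genes, a replicate block and left-out libraries. Named genes were the markers, the 15 highest and 10 lowest under set conditions, up to 6 per list, 5 per partner tissue and the 10 most variable within small intestine. The members and lists were chosen with earlier results of these data known. The labels do not say which animal a library came from, so p-values measure the spread between these libraries. Promoter sequences are from RefSeq (GRCm38.p6). A few genes that met these rules are not reported here.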

Additional observations from a re-analysis of the deposited data

Results flagged for a closer look

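Of 267 groups of 4 libraries looked at, 218 of them genes, 20 held a library farther from the others than Dixon's 95% critical value for 4 samples allows, 16 of them genes. For groups picked without regard to their values, chance gives about 1 in 20. That rate does not hold here, since genes with the largest spread and genes chosen after their values were seen were included. A group with a read in 1 library alone is always flagged, as were Insl5, Cpa3, Hoxa9 and Muc5ac.

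Small intestine replicate 4 was the library apart for most. It was high for Tff2 at 2636 CPM, Alpi at 1666 CPM, Prap1 at 1571 CPM, Papss2 at 499 CPM and Muc6 at 482 CPM. It was also high for Cyp2c29 at 175 CPM, Cpa1 at 68.4 CPM and Gkn1 at 6.52 CPM. The 11 stomach genes summed to 3737 CPM in it. Replicate 4 was the only library with a read of Muc5ac, at 0.543 CPM. It was low for Hsd11b1 at 2.72 CPM. Replicate 1 was high for Cubn at 469 CPM, low for Trpm5 at 7.38 CPM, and the only library with a read of Insl5 and of Cpa3, each at 0.462 CPM. Replicate 3 was high for Bco1 at 26.3 CPM and was the only library with a read of Hoxa9, at 0.360 CPM.

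In other tissues, the median level of 91 restricted genes as a percentage of the small intestine mean stood apart in brain replicate 3 at 1.11%, in liver replicate 4 at 0.686% and in spleen replicate 3 at 0.0127%. Without brain replicate 3, liver replicate 4 and female reproductive tract replicates 3 and 4, 3816 genes were called higher and 1588 lower.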

How the results depend on the processing

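Scaling by library totals moved 4 counts of calls past 1.5 times: 1726 genes higher and 3244 lower than in colon, and 7492 higher and 1615 lower than in liver. No other count against the 14 tissues, colon, liver or kidney, nor that of restricted genes, did so under the alternatives run, and none of the named values reversed. Against the other 14 tissues, leaving out each small intestine library gave 3587 to 3676 genes higher and 1449 to 1700 lower, limma-trend 2867 and 2266, and DESeq2's Wald test 3268 and 2341. Of 292 results on single genes 29 changed their call under some setting, and 18 of 68 list counts, an alternative chosen after seeing the data as were the named genes against colon, liver and kidney, moved past 1.5 times. Pancreas genes called higher were 2 in place of 9 without replicate 4, stomach genes 8 in place of 2 with no filter, Hox genes 2 in place of 7 in limma-trend, T cell genes 3 in place of 5 over protein-coding genes, and macrophage and related genes 2 to 6 in place of 4. Fibroblast and vessel genes called higher were 1 or 2, and B cell genes 0 to 2. Genes called lower ranged from 3 to 7 on the fat list, 2 to 5 for B cells, 0 to 5 for Hox, 0 to 3 for colonocytes, 0 to 2 for MHC class II, 0 to 1 for T cells and plasma cells, and 1 to 2 for tuft cells, the urea cycle, fibroblasts and vessels, and macrophages.

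With a replicate block, 3693 genes were higher and 1582 lower. The labels do not say what the replicate number marks. Deviations of each small intestine library from its tissue mean were correlated with the averaged deviations of same-numbered libraries of the other tissues. Pearson's r was 0.0415, 0.0232, 0.0743 and 0.0497 for replicates 1 to 4. Each was the highest value of its small intestine library, though for replicate 2 only against 0.0168 with number 1. That is a hint from the data and not the design. Depth set the floor of small intestine means at 0.330 CPM, or 3 counts over the 4 libraries. Hoxa10, with no read in small intestine, was not called lower than the other tissues. The causes of these changes were not tested.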

Other observations

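Genes in this section were chosen after their values were seen. They were picked from those highest in small intestine, with no count over a list. Among them were 4 whose products break down or carry nucleosides. Ada, which deaminates adenosine, had 465, 366, 319 and 449.6 CPM in small intestine, against 42.3 ± 2.11 CPM in thymus (log2 fold change 6.55, SE 0.11, adjusted p = 7.2e-50, edgeR's quasi-likelihood test), and all 4 libraries lay above every other library. Pnp2, a purine nucleoside phosphorylase, had 174 ± 30.6 CPM in small intestine and 34.1 ± 4.08 CPM in bone marrow. Upp1, uridine phosphorylase, had 129.9 ± 24.9 CPM in small intestine and 20.2 ± 11.8 CPM in colon. Slc28a1, a carrier that brings pyrimidine nucleosides into cells, had 76.5 ± 21.8 CPM in small intestine, 16 ± 1.46 CPM in kidney and no read in colon.

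Another 4 encode immune receptors or ligands. Btnl1, a butyrophilin-like gene whose product is known to maintain intraepithelial γδ T cells in mice, had 167, 112, 110.5 and 133 CPM in small intestine, against 26.2 ± 12.4 CPM in colon (log2 fold change 8.96, SE 0.21, adjusted p = 1.7e-35). H2-T3, whose product is the thymus leukaemia antigen that binds CD8αα, had 225, 191, 165 and 234 CPM in small intestine, against 20.7 ± 11.9 CPM in colon (log2 fold change 9.26, SE 0.19, adjusted p = 8.9e-44). Clec2h, a C-type lectin, had 1421 ± 309 CPM in small intestine and 238 ± 46.4 CPM in colon, and Btnl2 had 74.3 ± 19.9 CPM in small intestine and 6.58 ± 0.998 CPM in blood. In each of these 4 genes the small intestine libraries were above all others.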
